A study of Mus musculus with 10 samples.

Results

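The genes described here are 10 components of the Wnt signalling pathway: the receptor gene Fzd7, the co-receptor genes Lrp5 and Lrp6, Frat1 and Frat2, the beta-catenin gene Ctnnb1, the scaffold and target gene Axin2, and the transcription factor genes Lef1, Tcf7 and Tcf7l2. They were taken by name, with the Ensembl identifiers of the deposited table matched to mouse symbols of the GENCODE annotation, and all 10 were found among 38887 identifiers. RNA sequencing had been done on hematopoietic progenitor cells from the bone marrow of mice that all carried Lewis lung carcinoma, a transplantable mouse lung tumour. The vehicle group held 5 libraries. The CK2i group held 5 libraries from mice dosed at 60 mg/kg with BMS-595, which inhibits the serine/threonine kinase CK2, and both groups were treated for 2 weeks. The labels give no mice without a tumour, no mouse strain or age, no markers by which the progenitors were isolated, and no statement that each replicate came from a separate mouse. The p-values below therefore weigh a group difference only against the spread between these libraries, and part of that spread may be technical.

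In the canonical Wnt pathway, a Wnt ligand binds a Frizzled receptor together with Lrp5 or Lrp6. Without a ligand, a destruction complex built on Axin and Apc lets the kinases CK1 and GSK3 phosphorylate beta-catenin, which is then degraded. When the receptors are engaged, Dishevelled inhibits this complex, and beta-catenin enters the nucleus, binds TCF/LEF factors and activates target genes such as Axin2. Frat proteins bind GSK3 and compete with Axin for it, so that they favour stable beta-catenin. CK2 is known to phosphorylate Dishevelled and beta-catenin, and in blood the pathway is studied for its part in stem cell maintenance and in T cell development, where Tcf7 and Lef1 are prominent.

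Frat1 and Frat2, the Frizzled receptor gene Fzd7 and the co-receptor gene Lrp5 differed between the groups, while Lrp6, Ctnnb1, Axin2, Tcf7 and Tcf7l2 did not pass the test and Lef1 did not pass the filter on low counts. In CK2i libraries Frat1 fell by 41.3%, Frat2 fell by 30.4% and Fzd7 fell by 20.6%, whereas Lrp5 was 1.34-fold higher. These are fitted changes of counts scaled to library size by edgeR's TMM method, tested by edgeR's quasi-likelihood test with Benjamini-Hochberg adjustment over the 14346 genes that passed a filter on low counts, with an adjusted p under 0.05 as the threshold. Of the 9 genes tested, 4 passed, 1 higher and 3 lower. Among all genes tested, 13.2% passed, with 6.43% higher and 6.76% lower in CK2i. The same 4 genes had groups that did not overlap, 1 with every CK2i library above every vehicle library and 3 with every CK2i library below. Such separation occurred above for 5.18% and below for 5.76% of all genes tested. The genes were listed with earlier results of these data known, so their share is a description beside that background. CK2i replicates 2 and 5 stood apart from the other CK2i libraries, and without them Frat2 and Fzd7 passed while Frat1 and Lrp5 did not.

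**Figure D1:**
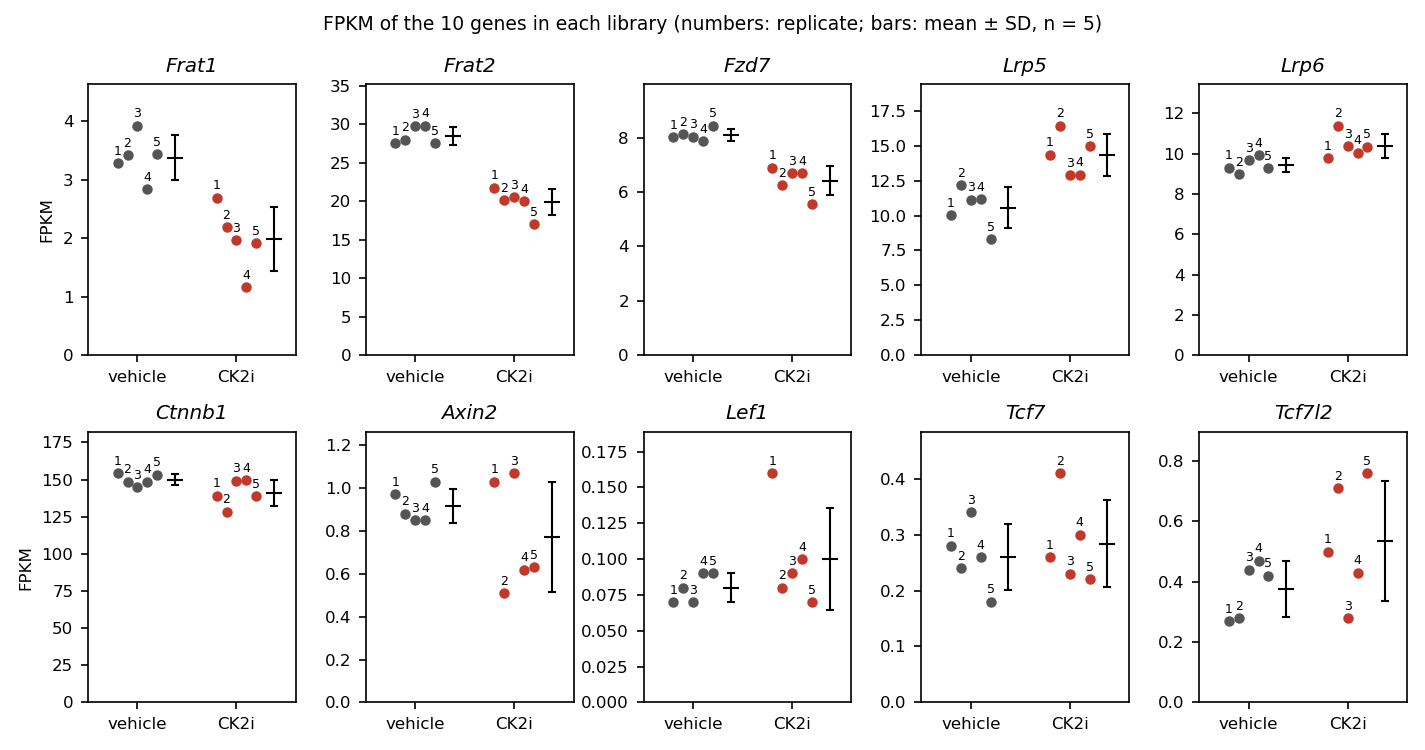
FPKM of each of the 10 genes (vertical axes, from 0, each panel on its own scale) in 5 vehicle and 5 CK2i libraries, with points numbered by replicate and bars giving the mean ± SD. The CK2i points of Frat1, Frat2 and Fzd7 lie below all vehicle points, those of Lrp5 lie above them, and the groups overlap in the other 6 panels.

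Frat1, Frat2 and Fzd7 are each annotated with 1 transcript of 1 exon, while the other 7 genes have 11 to 23 exons in their longest model. Frat1 and Frat2 are paralogues that lie beside each other on chromosome 19, on opposite strands. The 250 bases before their annotated starts, from RefSeq on GRCm38.p6 and written 5′ to 3′ on the strand of the gene, are shown because both genes fell and because their promoters share a stretch directly at the start. Capitals mark that stretch. The Frat1 window is chr19:41829720-41829969 on the plus strand, and the Frat2 window is chr19:41848133-41848382 on the minus strand.
Frat1: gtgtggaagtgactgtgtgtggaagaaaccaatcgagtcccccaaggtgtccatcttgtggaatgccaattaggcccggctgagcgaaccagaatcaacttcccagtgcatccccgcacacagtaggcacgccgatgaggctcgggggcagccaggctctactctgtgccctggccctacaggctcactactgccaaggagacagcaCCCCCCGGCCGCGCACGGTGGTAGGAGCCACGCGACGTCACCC
Frat2: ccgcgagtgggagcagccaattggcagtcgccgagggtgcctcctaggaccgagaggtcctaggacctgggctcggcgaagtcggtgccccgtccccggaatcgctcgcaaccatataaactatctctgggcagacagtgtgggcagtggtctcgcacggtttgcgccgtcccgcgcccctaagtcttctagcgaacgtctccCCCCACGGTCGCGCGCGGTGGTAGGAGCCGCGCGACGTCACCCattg
The shared stretch is 43 bases long, of which 39 are identical. Counted from 1 at the first capital base, with the Frat1 base given first, the 4 differences are C5A, C9T, A15G and A30G. The stretch ends 1 base before the Frat1 start and 5 bases before the Frat2 start. With the windows aligned by it, the remaining 203 aligned bases are 27.6% identical. Its longest identical runs, CGGTGGTAGGAGCC and CGCGACGTCACCC, searched on both strands, were each found in 2 of 32851 RefSeq mouse promoter windows of 250 bases, those of Frat1 and Frat2. The letters ACGTCA, which occur in the cAMP response element, a motif bound by CREB factors, lie in the second run and are common, being present on either strand in 6.47% of the windows. These matches describe the letters only.

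Frizzled 7 is encoded on chromosome 1, and its promoter is shown because it holds a match to a motif of the TCF/LEF factors, the nuclear end of the pathway. The window is chr1:59481897-59482146 on the plus strand of GRCm38.p6, and capitals mark the match AACAAAG, which begins 130 bases before the RefSeq start.
Fzd7: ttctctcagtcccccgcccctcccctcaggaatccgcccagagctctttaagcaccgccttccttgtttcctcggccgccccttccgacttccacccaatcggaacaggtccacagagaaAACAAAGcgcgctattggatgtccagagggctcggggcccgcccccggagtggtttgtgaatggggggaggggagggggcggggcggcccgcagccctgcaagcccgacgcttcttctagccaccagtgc
The motifs searched were ATCAAAG and TTCAAAG as well as AACAAAG and TACAAAG, on both strands. At least 1 of them lies in 14.8% of all 250-base windows, so a match in 1 promoter is common. RefSeq windows were found for 8 of the 10 genes. Besides Fzd7, the fourth listed Lef1 start had TACAAAG 147 bases before it, and the second Tcf7l2 start had AACAAAG on the opposite strand 14 bases before it. None of these letters were found in the windows of Frat1, Frat2, Axin2, Tcf7 or Ctnnb1, which says nothing of other positions. The GC content was 62% for Frat1, 66% for Frat2 and 65.2% for Fzd7, above the median window at 52.4%. This was not particular to the genes that fell, with 69.2% for Axin2, 76% and 64.4% for Tcf7, and 74.8% and 74.4% for Ctnnb1. The Tcf7l2 windows were at 72.8% and 40.8%, and those of Lef1 ranged from 44.8% to 66.4%.

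The libraries differed in depth and in markers of cell types. The share of all genes tested that passed, 13.2%, stands beside the marker counts below. Total estimated counts were 37569160 to 43636152 in vehicle and 34127674 to 40811539 in CK2i libraries. On the first principal component, with 40.8% of the variance, CK2i replicates 2 and 5 stood apart at 43.26 and 43.68, the other CK2i libraries at -4.1 to 12.48 and vehicle libraries at -29.62 to -9.37. Progenitor markers were present, with Kit at 43.6 to 59.5 and Cd34 at 55.9 to 90.5 FPKM over all libraries. Of the 8 on that list, Kit was lower (log2 fold change -0.26 ± 0.06, edgeR adjusted p = 0.0302) and Mpo, a granule enzyme gene, higher (0.63 ± 0.18, edgeR adjusted p = 0.0451). Of 8 neutrophil and monocyte markers 4 were higher, their summed CPM (TMM-scaled counts relative to library size) being 668 to 1430 in vehicle and 1201 to 2306 in CK2i libraries, highest in CK2i replicate 2. Of 7 megakaryocyte markers 4 were lower, at 2114 to 3315 and 1196 to 2538 CPM, lowest in CK2i replicate 2. In both lists the summed levels of the groups overlapped. Of 7 erythroid markers 4 were higher, at 326 to 486 and 428 to 579 CPM. Of 7 stromal and endothelial markers, Cdh5 was at most 0.25 FPKM in any library and did not pass, nor did the collagen genes. Only 1 of the 7 was lower, Pecam1 (log2 fold change -0.24 ± 0.07, edgeR adjusted p = 0.0429). This list summed to 154 to 232 and 125 to 190 CPM, with overlap. The part of these shifts in the changes of Frat1, Frat2, Fzd7 and Lrp5 was not tested, and in such bulk samples fewer cells of a type and less RNA per cell cannot be told apart. The 5 epithelial genes listed for Lewis lung carcinoma summed to 14.4 to 22.1 and 16.0 to 22.3 CPM. Among them Krt18 was at 3.61 to 7.99 FPKM, Krt8 at most 0.30 FPKM and Krt19 at 0 in all libraries. Which cells these reads came from was not tested.

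Without CK2i replicates 2 and 5, an alternative chosen after the data were seen, Frat2 had a log2 fold change of -0.47 (edgeR adjusted p = 0.00469) and Fzd7 of -0.28 (edgeR adjusted p = 0.0292). Frat1 kept its size at -0.81 with an adjusted p of 0.137, and Lrp5 was at 0.31 with an adjusted p of 0.15 in the same edgeR fit. Over all genes, 175 passed in this fit and 1892 with all 10 libraries. Frat2 and Fzd7 were therefore lower with and without these libraries, while Frat1 and Lrp5 did not pass in this fit of 8 libraries.

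**Figure D2:**
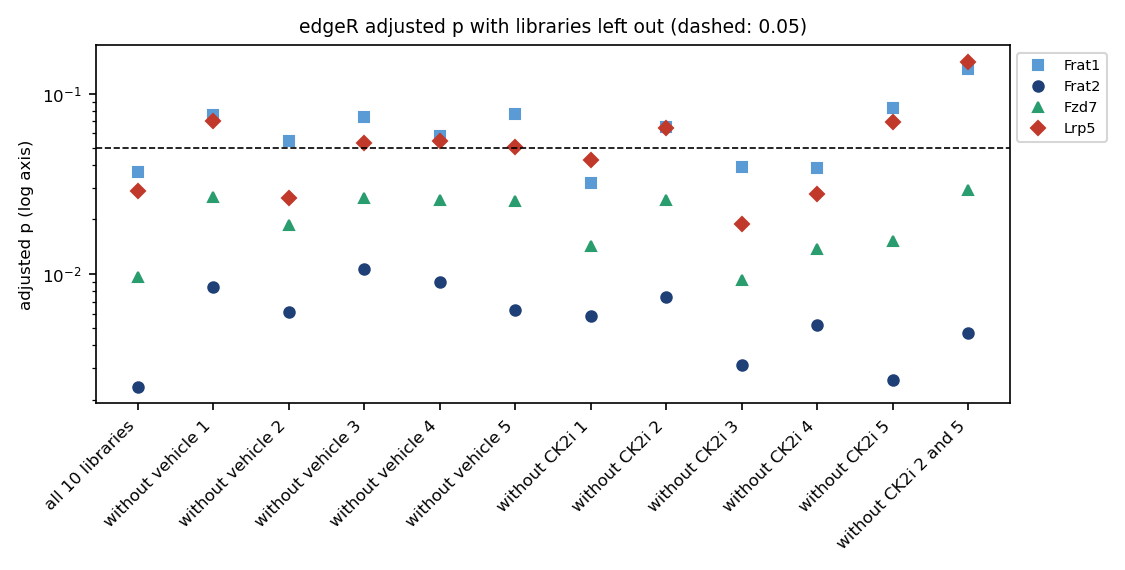
Adjusted p of edgeR's test (vertical axis, log scale, dashed line at 0.05) for Frat1, Frat2, Fzd7 and Lrp5 with all 10 libraries, with each library left out, and without CK2i replicates 2 and 5 (horizontal axis). Frat2 and Fzd7 lie below the line throughout, and Frat1 and Lrp5 cross it, reaching 0.137 and 0.15 at the right.

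Levels are given as FPKM, which divides the fragments of a gene by its length and the library's depth, so that they can be set side by side between genes. In vehicle libraries the order by mean FPKM was Ctnnb1, Frat2, Lrp5, Lrp6, Fzd7, Frat1, Axin2, Tcf7l2, Tcf7 and Lef1, from 150 down to 0.0800. The place of Frat1 depends on the length used for it, which was not that of its annotated transcript, as set out below. The ranges of Lrp5 and Lrp6 overlapped, as did those of Tcf7l2 and Tcf7, and the other neighbours in this order did not. The vehicle range of Lrp5 also overlapped that of Fzd7. In CK2i libraries Lrp5, Lrp6 and Fzd7 did not overlap with one another. Among all genes, Ctnnb1 held rank 677 by mean vehicle FPKM, and Lef1 held rank 16284.

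Of the receptors, Fzd7 (ENSMUSG00000041075, GRCm38 chr1:59482424-59486955, plus strand) encodes a seven-pass Wnt receptor. Its FPKM in vehicle replicates 1 to 5 was 8.01, 8.14, 8.04, 7.87 and 8.44. In CK2i replicates 1 to 5 it was 6.90, 6.26, 6.69, 6.69 and 5.56. The vehicle libraries lay close together, and every CK2i library lay below the lowest of them, with CK2i replicate 5 the lowest. The mean fell from 8.10 ± 0.213 to 6.42 ± 0.534 FPKM (SD, n = 5 each), and the log2 fold change was -0.33 ± 0.05 (SE; edgeR quasi-likelihood test, Benjamini-Hochberg adjusted p = 0.00957). The call held in each of 10 fits that left out 1 library. Its adjusted p was 0.186 in a fit with 1 surrogate variable, a covariate for hidden variation that itself had a correlation of 0.7 with the group.

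Fzd7 was the most abundant of the 10 Frizzled genes in every library. It made up 66.2% to 72.4% of the summed Frizzled FPKM in vehicle libraries and 54.2% to 58.4% in CK2i libraries. These shares did not overlap. The sum itself was 11.5 to 12.2 FPKM in vehicle and 9.64 to 12.5 in CK2i libraries and overlapped, with CK2i replicate 5 lowest and CK2i replicate 1 highest. Of the 8 Frizzled genes tested, 1 was lower, 1 was higher and 6 did not pass (25% called, beside 13.2% of all genes tested). A positive fold change was found for 6, with a median log2 fold change of 0.34 over the 8 genes against -0.00 over all genes tested. Those 6 were low, with vehicle means from 0.14 FPKM for Fzd1 to 1.27 for Fzd6, so the median is not read as a rise of the class. The gene that rose was Fzd9, also a Wnt receptor, at 0.368 ± 0.0432 FPKM in vehicle and 0.694 ± 0.288 in CK2i libraries (log2 fold change 0.92 ± 0.27, edgeR adjusted p = 0.0477). Its groups overlapped, since CK2i replicates 4 and 5 stayed at 0.40 and 0.44 FPKM, and its call held in 1 of 10 fits with a library left out. Fzd8 took 1.81% to 4.05% of the Frizzled sum in vehicle and 4.36% to 5.74% in CK2i libraries, while its own fold change did not pass (adjusted p = 0.0576 in the edgeR fit). It was singled out after its values were seen.

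**Figure D3:**
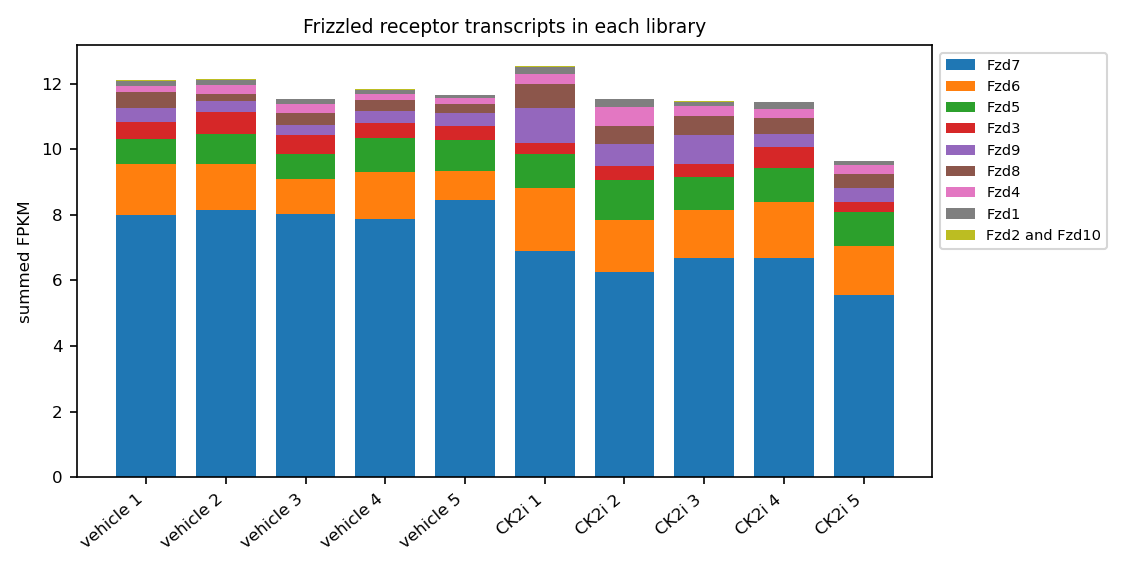
Stacked bars of the FPKM of the Frizzled genes in each of the 5 vehicle and 5 CK2i libraries, with the vertical axis from 0. The Fzd7 segment is the tallest in every bar and ends between 7.87 and 8.44 FPKM in vehicle libraries and between 5.56 and 6.90 in CK2i libraries.

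Lrp5 and Lrp6 encode related single-pass receptors that bind Wnt together with a Frizzled and, once phosphorylated, recruit Axin. Lrp5 (ENSMUSG00000024913, chr19:3584828-3686564, minus strand) stood at 10.1, 12.2, 11.1, 11.2 and 8.31 FPKM in vehicle replicates 1 to 5. It stood at 14.4, 16.4, 12.9, 12.9 and 15.0 FPKM in CK2i replicates 1 to 5. No CK2i library reached down to the vehicle range, but the gap between vehicle replicate 2 and CK2i replicates 3 and 4 was small beside the spread within a group. The mean rose from 10.6 ± 1.47 to 14.3 ± 1.49 FPKM (SD, n = 5 each), and the log2 fold change was 0.42 ± 0.10 (SE; edgeR adjusted p = 0.0289). The call held in 4 of 10 fits with 1 library left out. It was lost without CK2i replicate 2 or 5 or without vehicle replicate 1, 3, 4 or 5, where the adjusted p reached 0.0704 at most and the log2 fold change was 0.35 to 0.44. With 1 surrogate variable its adjusted p was 0.523.

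Lrp6 (ENSMUSG00000030201, chr6:134446476-134566965, minus strand) was at 9.30, 8.99, 9.67, 9.91 and 9.29 FPKM in vehicle replicates 1 to 5. Its CK2i values were 9.79, 11.4, 10.4, 10.1 and 10.3 FPKM. The groups overlapped by CK2i replicate 1, which lay below vehicle replicate 4. Mean FPKM was 9.43 ± 0.360 in vehicle and 10.4 ± 0.604 in CK2i libraries (SD, n = 5 each), and the log2 fold change of 0.11 ± 0.05 did not pass (edgeR adjusted p = 0.164). The ratio of Lrp5 to Lrp6 within a library does not depend on scaling between libraries. It ran from 0.895 to 1.35 in vehicle and from 1.24 to 1.47 in CK2i libraries. Its log2 difference was 0.31, with p = 0.0238 in a two-sided exact permutation test over 252 splits and p = 0.0714 after adjustment over the 3 ratios tested, which missed the threshold. The smallest p that 5 against 5 libraries can give is 0.00794. The summed FPKM of Lrp5 and Lrp6 was 17.6 to 21.2 in vehicle and 23.0 to 27.8 in CK2i libraries, without overlap.

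Frat1 and Frat2 encode small proteins that bind GSK3, and their starts lie 18.2 kb apart. Frat2 (ENSMUSG00000047604, chr19:41845972-41848132, minus strand) was at 27.5, 28.0, 29.8, 29.8 and 27.5 FPKM in vehicle replicates 1 to 5. It was at 21.8, 20.1, 20.5, 20.0 and 17.1 FPKM in CK2i replicates 1 to 5. Every CK2i library lay below every vehicle library, by more than the range within either group, and CK2i replicate 5 was the lowest. Mean FPKM fell from 28.5 ± 1.16 to 19.9 ± 1.74 (SD, n = 5 each), with a log2 fold change of -0.52 ± 0.06 (SE; edgeR adjusted p = 0.00235). This was the smallest adjusted p among the 10 genes. It passed in all 10 fits with a library left out (adjusted p 0.00258 to 0.0106) and with 1 surrogate variable (log2 fold change -0.45, adjusted p = 0.0464).

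Frat1 (ENSMUSG00000067199, chr19:41829970-41832583, plus strand) was far lower, at 3.28, 3.42, 3.92, 2.84 and 3.43 FPKM in vehicle replicates 1 to 5. Its CK2i values were 2.69, 2.19, 1.97, 1.16 and 1.91 FPKM. The groups did not overlap, although CK2i replicate 1 came close to vehicle replicate 4, and CK2i replicate 4 was the lowest. Mean FPKM fell from 3.38 ± 0.386 to 1.98 ± 0.554 (SD, n = 5 each), with a log2 fold change of -0.77 ± 0.20 (SE; edgeR adjusted p = 0.0369). These values rest on 48 to 65 estimated counts in a vehicle library and 18 to 41 in a CK2i library, against 1159 or more for Frat2, so counting error weighs more on Frat1. The fold change stayed between -0.90 and -0.62 in the fits with 1 library left out, but the call held in 3 of 10 and was lost without CK2i replicate 2 or 5 or any 1 vehicle library, with adjusted p up to 0.083. With 1 surrogate variable its adjusted p was 0.388.

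Together, the Frat genes summed to 30.8 to 33.7 FPKM in vehicle and 19.0 to 24.5 FPKM in CK2i libraries, without overlap, and Frat2 supplied 88.4% to 91.3% and 89.0% to 94.5% of that sum. The ratio of Frat1 to Frat2 in FPKM was 0.0953 to 0.132 in vehicle and 0.0579 to 0.124 in CK2i libraries. Its log2 difference of -0.29 did not pass (two-sided exact permutation p = 0.19, 0.286 after adjustment over 3 ratios), and it was -0.11 without CK2i replicate 4. In estimated counts the genes lay further apart, at 48 to 65 for Frat1 and 2090 to 2431 for Frat2 in vehicle libraries. The larger fold change of Frat1 was thus not shown to differ from that of Frat2. The annotated transcripts have 2614 and 2161 bases, and their longest shared run is 104 bases. Of the 2540 runs of 75 bases in Frat1, the read length of the libraries, 30 occur in Frat2. Reads from there would be divided between the genes by RSEM's model. In vehicle libraries Frat1 had a mean of 1.4 CPM at 3.38 FPKM, and Frat2 56.9 CPM at 28.5 FPKM. The length behind the FPKM of Frat1 was thus shorter than that of Frat2, unlike in these annotated transcripts. The shared runs therefore need not describe the Frat1 model that RSEM used, and the weight of shared reads on Frat1 was not tested. The shares and the ratio in FPKM hold for that length only.

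None of the other tested genes around Frat1 and Frat2 passed as lower. Within 100 kb of the Frat2 start, 6 genes were tested, Frat1 among them. Arhgap19 had a log2 fold change of 0.09 ± 0.05 (edgeR adjusted p = 0.271). Rrp12, a ribosome assembly gene, had -0.06 ± 0.06 (edgeR adjusted p = 0.498). Zdhhc16 and Exosc1 had 0.09 ± 0.04 and 0.04 ± 0.06 and did not pass either. Pgam1, a glycolytic enzyme gene, rose by 0.36 ± 0.10 (edgeR adjusted p = 0.0366). Within 100 kb of Fzd7 and of Lrp5, 2 genes each were tested with edgeR; none passed, 0 had an unadjusted p under 0.05 and DESeq2 called 0.

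**Figure D4:**
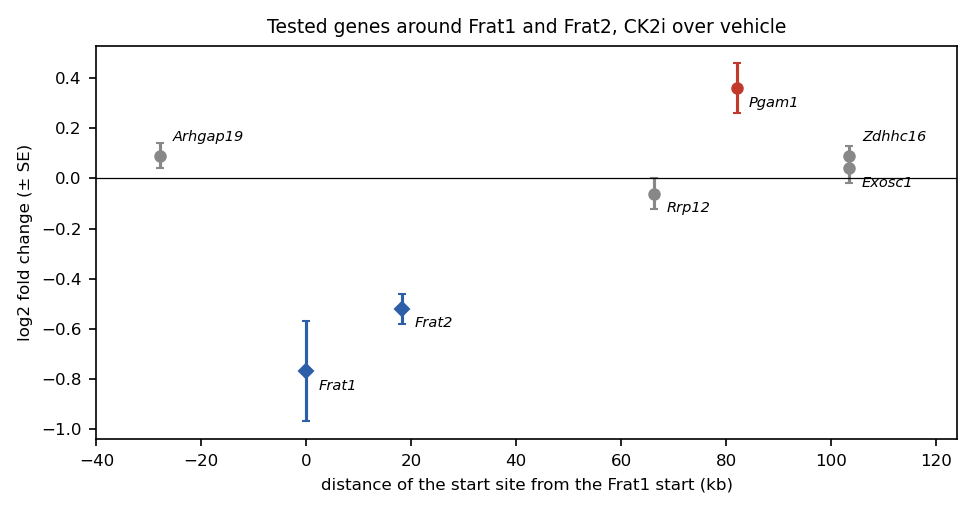
Log2 fold change of CK2i over vehicle (vertical axis, points with SE bars) for tested genes around Frat1 and Frat2, against the distance of each start from the Frat1 start in kb (horizontal axis); diamonds are the Frat genes, blue and red mark lower and higher calls. Frat1 and Frat2 lie at -0.77 and -0.52, Pgam1 at 0.36, and the others between -0.06 and 0.09.

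Since Frat1, Frat2 and Fzd7 share the lack of introns, the other tested genes of that kind were counted, a comparison chosen after their values were seen. Of 289 tested protein-coding genes with 1 exon, 5.88% were higher and 9.34% lower, with a median log2 fold change of -0.05. Of the 12411 other tested protein-coding genes, 6.74% were higher and 7.21% lower, with a median of -0.01. The class with 1 exon includes Frat1, Frat2 and Fzd7, and the difference between the classes was not tested.

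Ctnnb1 encodes beta-catenin, the protein whose stability the pathway controls. The gene (ENSMUSG00000006932, chr9:120929216-120960507, plus strand) had the highest level of the 10, at 154, 149, 145, 149 and 153 FPKM in vehicle replicates 1 to 5. The CK2i values were 139, 128, 149, 150 and 139 FPKM. CK2i replicates 3 and 4 lay within the vehicle range and the other CK2i libraries below it. Mean FPKM was 150 ± 3.91 and 141 ± 8.82 (SD, n = 5 each), and the log2 fold change of -0.12 ± 0.04 did not pass (edgeR adjusted p = 0.0813). It passed in 1 of 10 fits with a library left out, at an adjusted p of 0.0466 without CK2i replicate 3. Transcript levels do not measure beta-catenin protein, its phosphorylation or its place in the cell.

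Axin2 has both roles, as a scaffold of the destruction complex and as a widely used target gene of the pathway. It lies at chr11:108920349-108950783 on the plus strand (ENSMUSG00000000142). Its FPKM was 0.97, 0.88, 0.85, 0.85 and 1.03 in vehicle replicates 1 to 5 and 1.03, 0.51, 1.07, 0.62 and 0.63 in CK2i replicates 1 to 5. On this scale 3 CK2i libraries lay below all vehicle libraries and CK2i replicate 3 above them. Its CPM, the scale of the test, was 2.24, 2.16, 2.69, 2.39 and 2.03 in vehicle and 2.53, 1.65, 2.32, 2.22 and 2.33 in CK2i libraries. There only CK2i replicate 2 lay below the vehicle range. The log2 fold change was -0.06 ± 0.14 (SE, edgeR adjusted p = 0.779). The low FPKM of CK2i replicates 4 and 5 thus had no counterpart in the counts. The ratio of CPM to FPKM, which depends on the transcript length that RSEM assigns, varied 1.87-fold between libraries for Axin2, against 1.02-fold to 1.08-fold for the Frat genes, Fzd7, Lrp5, Lrp6 and Ctnnb1.

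The TCF/LEF factors, which carry beta-catenin to DNA, were low in all libraries. Tcf7l2 (ENSMUSG00000024985, chr19:55741820-55933654, plus strand) was at 0.27, 0.28, 0.44, 0.47 and 0.42 FPKM in vehicle and 0.50, 0.71, 0.28, 0.43 and 0.76 FPKM in CK2i replicates 1 to 5. CK2i replicates 2 and 5 were the highest, and the groups overlapped. The log2 fold change was 0.22 ± 0.27 (edgeR adjusted p = 0.581), and the ratio of CPM to FPKM varied 1.71-fold. Tcf7 (ENSMUSG00000000782, chr11:52252371-52283014, minus strand), best known from T cells, was at 0.28, 0.24, 0.34, 0.26 and 0.18 FPKM in vehicle and 0.26, 0.41, 0.23, 0.30 and 0.22 FPKM in CK2i libraries. The log2 fold change of 0.12 ± 0.23 did not pass (edgeR adjusted p = 0.744). Neither had an unadjusted p under 0.05, and DESeq2 called 0 of the TCF/LEF genes. Both rest on few reads, 31 to 81 estimated counts a library for Tcf7l2 and 16 to 37 for Tcf7.

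Lef1 (ENSMUSG00000027985, chr3:131110471-131224356, plus strand), also prominent in lymphocytes, had 6 to 10 estimated counts in vehicle and 6 to 14 in CK2i libraries and did not pass the filter on low counts. Its FPKM was 0.07, 0.08, 0.07, 0.09 and 0.09 in vehicle and 0.16, 0.08, 0.09, 0.10 and 0.07 in CK2i libraries, with CK2i replicate 1 alone above 0.10. DESeq2 and edgeR without the filter included Lef1 and did not call it. The ratio of Tcf7 to Lef1 was 2.00 to 4.86 in vehicle and 1.62 to 5.12 in CK2i libraries, with a log2 difference of -0.15 that did not pass (two-sided exact permutation p = 0.69). Markers of lymphoid cells were measured beside these factors. The 12 listed T cell genes summed to 4.92 to 6.63 CPM in vehicle and 4.52 to 5.72 in CK2i libraries. Cd3e reached at most 0.10 FPKM and Trbc2, the highest of them, 2.18 FPKM. None of the 5 tested with edgeR passed or had an unadjusted p under 0.05 (DESeq2 called 0). The 11 B lymphoid genes summed to 15.6 to 22 and 18.2 to 22.9 CPM. Of 5 tested with edgeR none passed, 1 had an unadjusted p under 0.05 and DESeq2 called 1 (Cd79a). The 9 innate lymphoid and NK genes summed to 15.3 to 23.9 and 18.8 to 25.4 CPM. Of 7 tested 1 was higher, Zbtb16 (edgeR adjusted p = 0.0258), beside 13.2% called among all genes tested.

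The rest of the pathway was read from lists of its parts, 123 genes including the 10, of which 77 were tested. Across these, 5 were higher and 9 lower, and the median log2 fold change was 0.05. Without CK2i replicates 2 and 5, 3 of the pathway genes passed. Without the 10 genes, 68 were tested, 4 were higher and 6 lower, a share of 14.7% that is close to the 13.2% of all genes tested and is not read as a result about the pathway. In the destruction complex none of 18 genes passed edgeR's test, 4 had an unadjusted p under 0.05, DESeq2 called 1 (Csnk1g2) and limma on FPKM called 0. Its most abundant gene was Csnk1a1, which encodes CK1 alpha, at 162 ± 3.75 FPKM in vehicle and 157 ± 5.21 in CK2i libraries (log2 fold change -0.05 ± 0.03). None of 17 target genes passed edgeR's test, with 9 positive and 8 negative fold changes and a median of 0.06. An unadjusted p under 0.05 was found for 4 of them, and DESeq2 and limma called 0. The most abundant was Jun, a subunit of the AP-1 factor, at 210 ± 34.5 and 200 ± 50.9 FPKM. None of the 8 genes for beta-catenin and its co-activators passed edgeR's test, although 6 had an unadjusted p under 0.05, Ctnnb1 among them, and DESeq2 called 3 (Jup, Bcl9 and Bcl9l) where limma called 0. Of 4 tested R-spondin receptors and receptor-removing ligases none passed in edgeR, DESeq2 or limma, and 1 had an unadjusted p under 0.05 in edgeR. The most abundant was Znrf3, a ligase that removes Frizzled, at 2.85 ± 0.136 and 3.04 ± 0.413 FPKM.

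**Figure D5:**
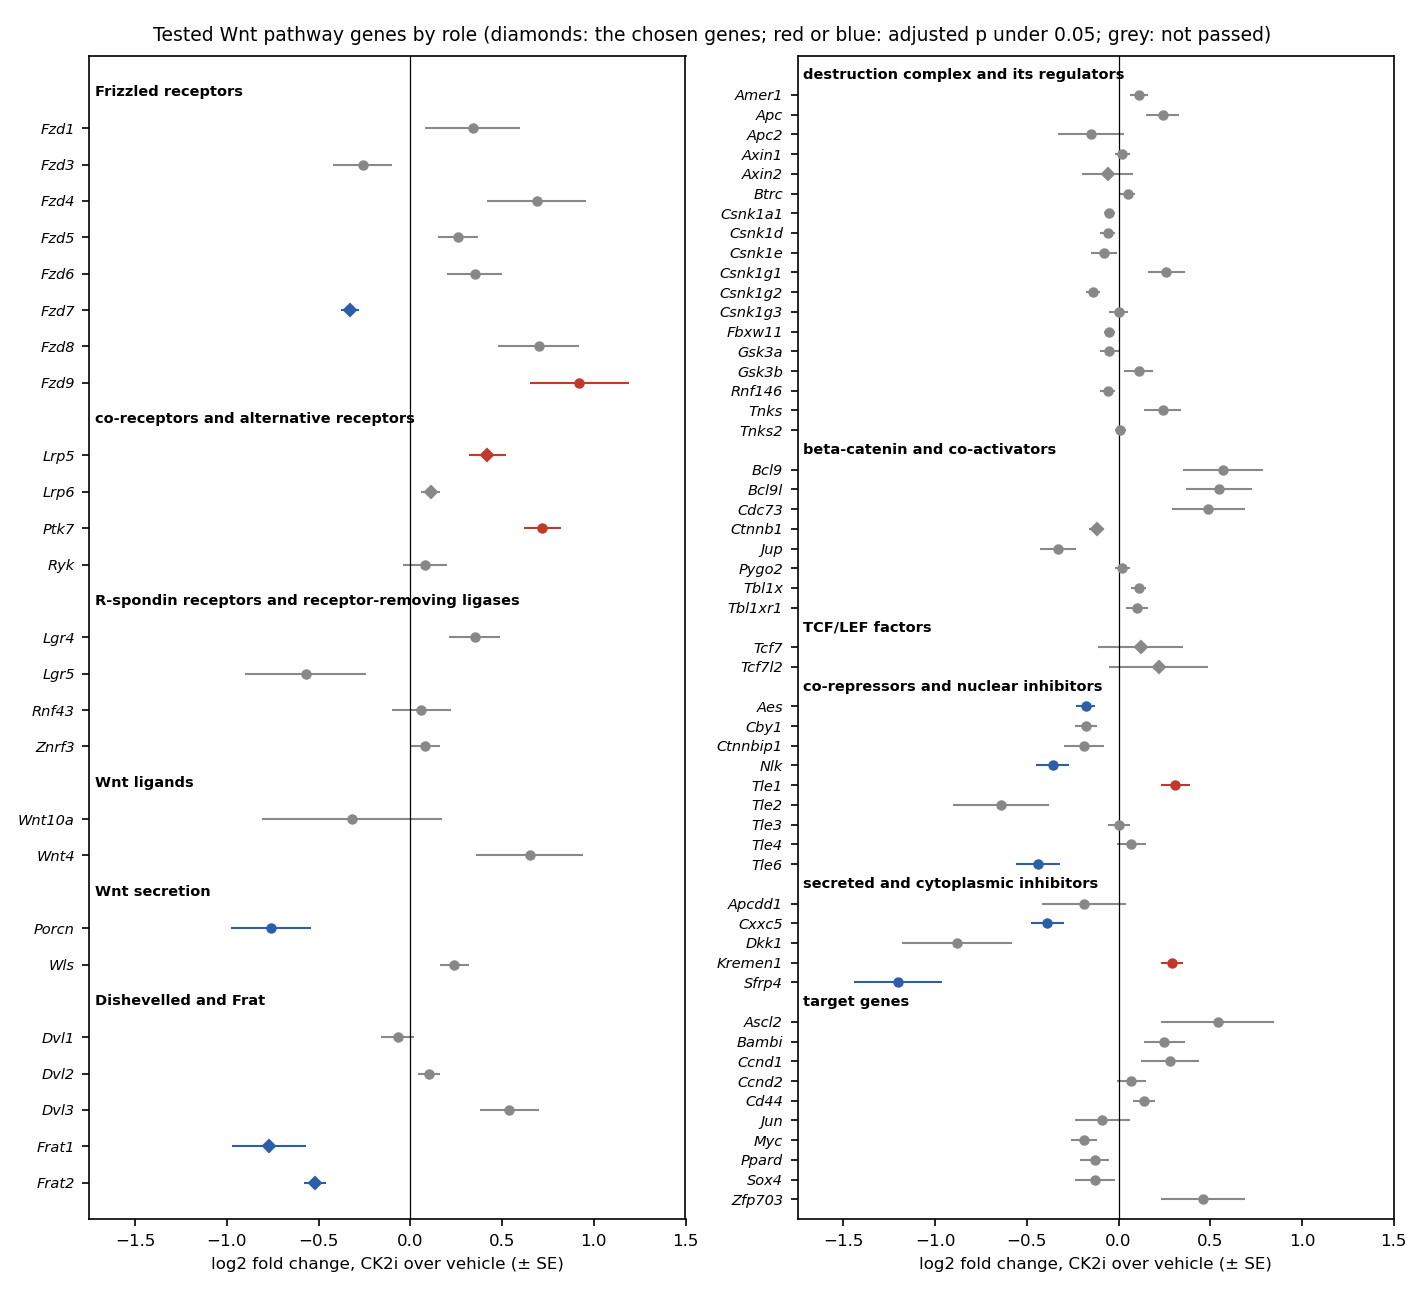
Log2 fold change of CK2i over vehicle (horizontal axes, with SE bars) for the 77 tested pathway genes, each drawn once under the role listed first; diamonds are the 10 genes apart from Lef1, red and blue mark higher and lower calls, grey those that did not pass. Calls lie among receptors, Frat genes, Wnt secretion, co-repressors and inhibitors, and the destruction complex and target genes are grey.

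Outside the 10 genes, the smallest adjusted p in the pathway belonged to Ptk7, which encodes a receptor-like pseudokinase of Wnt and planar polarity signalling. It was at 2.18, 2.01, 2.06, 2.17 and 1.70 FPKM in vehicle and 4.15, 3.35, 3.30, 2.99 and 2.96 FPKM in CK2i libraries. The groups did not overlap, and the log2 fold change was 0.72 ± 0.10 (edgeR adjusted p = 0.00681), passing in all 10 fits with a library left out. Sfrp4 encodes a secreted Frizzled-related protein that can bind Wnt ligands. It fell from 2.59 ± 0.479 to 1.13 ± 0.407 FPKM without overlap (log2 fold change -1.20 ± 0.24, edgeR adjusted p = 0.0184), also in all 10 fits. Without CK2i replicates 2 and 5, Ptk7 passed at 0.76 (edgeR adjusted p = 0.0254) and Sfrp4 missed the threshold at -0.96 (edgeR adjusted p = 0.0546). Kremen1, a co-receptor of the Dkk inhibitors, rose from 1.98 ± 0.110 to 2.46 ± 0.114 FPKM (0.29 ± 0.06, edgeR adjusted p = 0.0221, 7 of 10 fits). Cxxc5, whose protein binds Dishevelled, fell from 11.4 ± 1.15 to 8.77 ± 1.01 FPKM (-0.39 ± 0.09, edgeR adjusted p = 0.0253, 5 of 10 fits). Of the 5 secreted and cytoplasmic inhibitors tested, 1 was higher and 2 lower (60%, beside 13.2% of all genes tested).

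Of 9 tested co-repressors and nuclear inhibitors, 1 was higher and 3 lower (44.4%, beside 13.2% of all genes tested). All of these calls were lost in 6 or more of the 10 fits. Tle1, a Groucho co-repressor of TCF/LEF factors, had a log2 fold change of 0.31 ± 0.08 (edgeR adjusted p = 0.0300, 4 fits). Its relative Tle6 had -0.44 ± 0.12 (edgeR adjusted p = 0.0421, 1 fit). Aes, a short Groucho protein and the most abundant of the list at 117 ± 4.02 and 104 ± 8.56 FPKM, had -0.18 ± 0.05 (edgeR adjusted p = 0.0477, 1 fit). Nlk, a kinase that acts on TCF/LEF factors, had -0.36 ± 0.09 (edgeR adjusted p = 0.0366, 3 fits). Each of these 4 fold changes was smaller in size than that of Frat2, and the differences between them were not tested.

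Ligands were scarce. Of 19 Wnt genes, 4 were listed with no count in any library, and 2 were tested. Wnt4, the higher of these over all 10 libraries, was at 0.134 ± 0.0385 FPKM in vehicle and 0.208 ± 0.0719 in CK2i libraries (edgeR adjusted p = 0.143). Wnt10a was at 0.168 ± 0.0377 FPKM in vehicle, above Wnt4, and 0.132 ± 0.123 in CK2i libraries (edgeR adjusted p = 0.676). DESeq2 called 0 of the Wnt genes, and edgeR gave 1 unadjusted p under 0.05, that of Wnt4. Porcn, the acyltransferase that Wnt proteins need for secretion, had a log2 fold change of -0.76 ± 0.22 (edgeR adjusted p = 0.0467), from 0.572 ± 0.142 to 0.332 ± 0.0545 FPKM, and the call was lost in every fit with a library left out. Wls, which carries Wnt proteins to the cell surface, was at 18.3 ± 1.47 and 21.7 ± 2.27 FPKM and did not pass (edgeR adjusted p = 0.0606). Dvl1, the most abundant Dishevelled gene, was at 27.2 ± 2.42 and 25.6 ± 4.48 FPKM, and none of the 3 Dishevelled genes passed edgeR's test. Dvl3 had an unadjusted p under 0.05 there and was called by DESeq2 and not by limma.

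Gene models without a name were left out of the next comparison, a description by the root mean square difference of centred log2 CPM. For each of the 4 called genes it gave the named tested genes with the most similar profile over the 10 libraries. For Frat2 these were Adgre5, an adhesion receptor gene (difference 0.0914, own SD of the Frat2 profile 0.277), Prkch (0.0999) and Pgm2l1 (0.101). For Fzd7 they were Acyp1 (0.0487, own SD 0.182), Diablo (0.0509) and Trim13 (0.0606). For Frat1 they were Tmem88 (0.188, own SD 0.48), Ston2 (0.223) and Mmp19 (0.223), and for Lrp5 Igfbp4 (0.0484, own SD 0.269), B4galnt1 (0.0514) and Map3k3 (0.0542). The profiles nearest to Frat1 were further from it than those nearest to the other 3, whose counts are higher. Diablo, a mitochondrial protein gene of cell death, fell from a mean of 46.5 to 38.7 FPKM (log2 fold change -0.29 ± 0.04, edgeR adjusted p = 0.00537). It was picked for its likeness to Fzd7, so its fall follows from that choice and is no separate result.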

How the data were processed

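The authors deposited 1 table with estimated counts and FPKM per gene for 10 libraries. Per the submitters' processing notes, Bowtie2, RSEM 1.2.31, DESeq2 and the build mm10 were used; for the annotation, the strand setting and any filters, nothing is stated in the sources used here. Each estimated count deposited is a whole number, and 2 lines without an identifier were left out. Per the labels, a stranded kit for total RNA was used, with paired 75-base reads. The deposited FPKM values, scaled by the authors with RSEM to length and depth, were used for levels. Symbols and coordinates came from GENCODE M21 (37570 of 38887 identifiers matched).

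Counts were tested with edgeR 4.0.16 in R 4.3.3 (TMM, filterByExpr minimum count 10, group as the only term, two-sided, Benjamini-Hochberg over 14346 genes); the biological coefficient of variation was 14.2%, so spread between libraries sets the precision except for low genes. Ratios were tested by exact permutation. Alternatives were DESeq2 1.42.0, limma 3.58.1 on log2(FPKM + 1) and log2(FPKM + 0.1) for genes of at least 1 FPKM, a surrogate variable from sva 3.50.0, other scaling, no filter, a replicate block and left-out libraries. The edgeR script was checked on simulated counts. No 2 libraries of a group agreed within sampling noise. The genes and lists were chosen with earlier results of these data known. Named pathway genes are those called and the most abundant of each list. Likeness takes the 3 nearest profiles of log2 CPM (prior count 2), with gene models without a name left out. RefSeq promoters cover 250 bases before a start.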

Additional observations from a re-analysis of the deposited data

Results flagged for a closer look

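In groups of 5 libraries, a single library far from the others was looked for in CPM of the 10 genes and the called pathway genes, 40 groups in all, and 2 were found, where chance gives about 1 in 20. Porcn was at 1.49 CPM in vehicle replicate 5 and at 0.797 to 0.879 in the other vehicle libraries, a gap of 0.882 of the group's range. Tle1 was at 20.2 CPM in CK2i replicate 1 and at 17.3 to 18.0 in the other CK2i libraries, a gap of 0.732 of the range. None of the 10 genes themselves had such a library.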

How the results depend on the processing

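Frat1, Frat2, Fzd7 and Lrp5 kept their direction under every alternative run. All 4 passed with DESeq2, DESeq2 size factors, no filter on low counts, limma on FPKM with either pseudocount, and the replicate block. With 1 surrogate variable 1 of the 10 genes passed, without CK2i replicates 2 and 5 it was 2, and with 1 library left out 2 to 5. The count over all genes was 1892 and moved to 30 with 1 surrogate variable, 3142 with DESeq2, 1065 and 1061 with limma (pseudocounts 0.1 and 1), 1139 with the replicate block and 175 without CK2i replicates 2 and 5. With 1 library left out it ranged from 446, without CK2i replicate 5, to 3198, without CK2i replicate 3. Of the pathway genes 14 passed, against 1 with 1 surrogate variable, 22 with DESeq2, 9 with limma at either pseudocount, 3 without CK2i replicates 2 and 5 and 4 to 24 with 1 library left out. Of the 5 tested genes that did not pass, Lrp6 and Ctnnb1 kept their direction and Axin2, Tcf7 and Tcf7l2 did not. Axin2 went to 0.07 with 1 surrogate variable and 0.03 without CK2i replicates 2 and 5 (-0.11 to 0.03 with 1 library left out). Tcf7 went to -0.19 and -0.02 (-0.07 to 0.21), and Tcf7l2 to -0.42 and -0.14 (-0.01 to 0.36). With 1 library left out the log2 difference of the Lrp5 to Lrp6 ratio was 0.23 to 0.38, with an adjusted exact permutation p of 0.0238 without vehicle replicate 2, that of Frat1 to Frat2 was -0.38 to -0.11 (-0.11 without CK2i replicate 4), and that of Tcf7 to Lef1 was -0.36 to 0.06. The causes were not tested. The replicate numbers did not pair the libraries (correlations of same-numbered libraries -0.159 to 0.228; 3 of 10 libraries correlated best with their own number). The block changed no call among the 10 genes and ended those of Aes, Fzd9, Kremen1 and Porcn. Axin2, Lef1, Tcf7 and Tcf7l2 were under the 1 FPKM limit of the limma fits and have no value there. Depth limits Lef1, Tcf7, Tcf7l2 and Frat1, which rest on 6 to 81 estimated counts a library.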
